A study of Mus musculus with 4 samples.

Results

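The subject is the transcriptome of Lewis lung carcinoma (LLC) cells recovered from tumours in WT host mice, taken as the 2 WT libraries of a series of 4 samples. The libraries were chosen by their genotype label alone, and no comparison between genotypes was made. The hosts were C57BL/6 mice whose Padi4 alleles were floxed and which had no Mrp8Cre, so that WT means Cre-negative here and the floxed gene was left intact. LLC tumours carrying TdTomato grew under the skin of the flank for 4 weeks and were dissociated with collagenase and hyaluronidase, and the sort kept TdTomato+ cells without CD45, the pan-leukocyte surface phosphatase. RNA was captured by its poly-A tail, from 100 ng of total RNA, amplified for 13 PCR cycles and read for 75 cycles from 1 end. WT replicate 1 held 23414984 estimated counts and WT replicate 2 held 25327974. Nothing in the sources used here says that the replicates came from separate animals, so the spread between them may be technical. With 2 libraries of 1 group no test was made; each gene is given by its value in replicate 1 and then in replicate 2.

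LLC is a transplantable line that began as a carcinoma of the lung in a C57BL mouse, and it grows in hosts of that strain with an intact immune system. It is known for rapid, poorly differentiated growth and for tumours rich in myeloid cells. Carcinoma cells of this kind can exchange the junction proteins and keratins of an epithelium for the intermediate filament vimentin, matrix proteins and the transcription factors of mesenchymal cells. The genes of those states, and the secreted factors through which tumour cells act on their surroundings, set the order of what follows.

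Levels are in TPM, a scale of transcript abundance, corrected for length, that sums to 1000000 in each library, added up over the transcripts of each gene. Of 21823 protein-coding genes, 10805 (49.5%) reached 1 TPM in both libraries, the limit used here for calling a gene detected. Another 4912 genes (22.5%) had 0 estimated counts in both. By mean TPM, 131 genes stood at 1000 TPM or more, 994 between 100 and 1000, 6325 between 10 and 100, and 3693 between 1 and 10. The expression was concentrated: the 100 most abundant genes held 46.1% of protein-coding TPM in replicate 1 and 46.5% in replicate 2, and 96 genes were in both of these lists of 100. The 10 most abundant held 16.4% and 19.9%, with 9 shared.

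**Figure D1:**
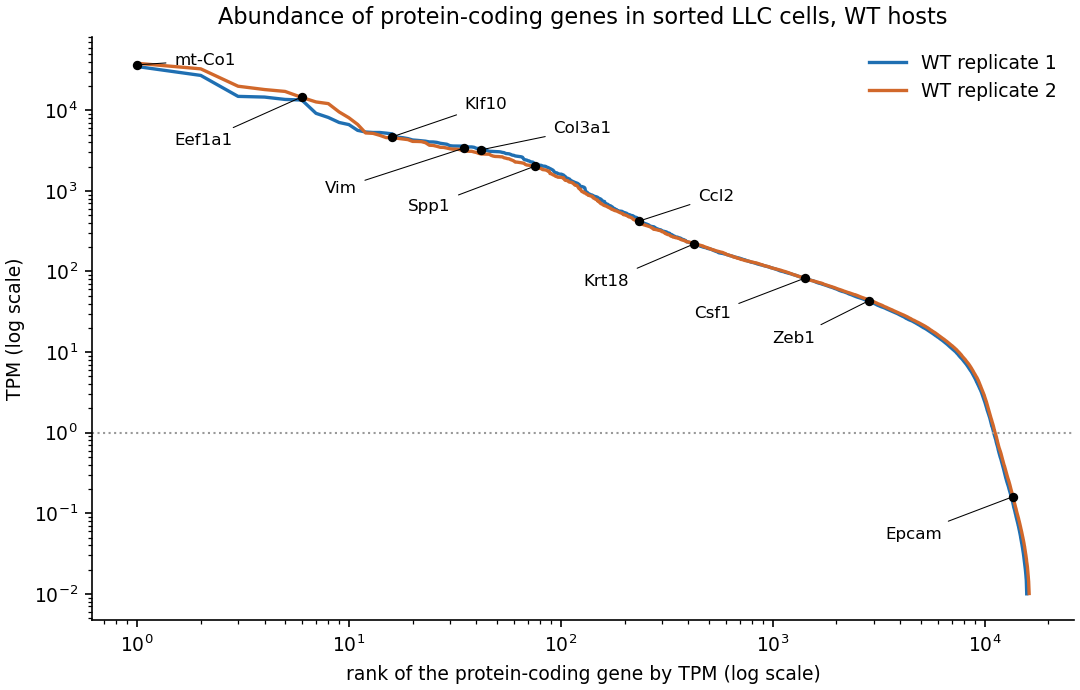
Level of every protein-coding gene (TPM, log scale) against its abundance rank (log scale) in WT replicates 1 and 2, 1 line per library. The lines run close together, with the 100 most abundant genes holding 46.1% and 46.5% of the protein-coding TPM.

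Translation and oxidative phosphorylation led the profile. Of the 100 genes with the highest mean, 12 were mitochondrially encoded and 58 were cytosolic ribosomal protein genes, which left 30 others. The 13 mitochondrially encoded genes held 14.2% of all TPM in replicate 1 and 18.3% in replicate 2. Cytochrome oxidase subunit gene mt-Co1 was the most abundant gene of both libraries, at 34916 and 38292 TPM, followed by mt-Co2 at 27073 and 32654. Both were higher in replicate 2, as were mt-Co3 (14582 and 19882 TPM) and the ATP synthase gene mt-Atp6 (13631 and 18079 TPM). The 79 ribosomal protein genes went the other way, with 20.7% of TPM in replicate 1 and 17.9% in replicate 2. Their most abundant member, the large-subunit gene Rpl23a, was at 7056 and 6679 TPM. Next came Rps24 at 5302 and 4574 TPM, Rpl26 at 5300.0 and 4482, and Rps27 at 5376 and 4391. All 79 reached 1 TPM in both libraries, against 49.5% of all protein-coding genes, and 77 had a mean of 100 TPM or more.

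Outside those families the most abundant gene was Eef1a1, the elongation factor that brings aminoacyl-tRNA to the ribosome, at 14875 and 14423 TPM. It stood well apart from the next, the growth-related translation gene Tpt1 at 5203 and 4887 TPM. A processed transcript of 661 bases, not annotated as coding, held 86.1% and 86.8% of the Tpt1 level. The translation factor list was detected in full, against 49.5% of all protein-coding genes, with 22 of 22 genes at a mean of 100 TPM or more. It includes the poly-A binding protein Pabpc1 (2882 and 2644 TPM) and the elongation factor Eef2 (2134 and 1927 TPM). Chaperones followed at Hspa8 (2981 and 2755 TPM) and Hsp90ab1 (2762 and 2664 TPM), whose products fold new proteins and stabilise kinases. The glycolytic enzyme Gapdh was at 4236 and 3099 TPM, and the iron storage subunit Fth1 was at 3066 and 2089 TPM. Both were higher in replicate 1.

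The other leading group was cytoskeletal. Of 48 cytoskeleton and motility genes, 46 (95.8%) were detected, against 49.5% of all protein-coding genes, and 38 had a mean of 100 TPM or more. The calcium-binding protein S100a6 was at 4450 and 4083 TPM, and its relative S100a4, known for its part in motility and metastasis, was at 3158 and 2874. Galectin 1 (Lgals1), a secreted and intracellular lectin, was at 3509 and 3462 TPM, nearly equal in the libraries. The actins Actb (2350 and 2096 TPM) and Actg1 (2366 and 1833 TPM) and the actin-sequestering thymosin Tmsb10 (2147 and 1898 TPM) came next. Of the 18 genes with an S100 symbol 11 were detected (61.1%), and of 11 annexin genes 9 were (81.8%), against the same 49.5%. The detected S100 symbols include S100pbp, which is a binding protein and not an S100 gene. Of all protein-coding genes with a mean of 10 TPM or more, 95.2% lay within 1.5-fold between the libraries. Among the 30 most abundant genes outside the ribosomal and mitochondrial families, 29 differed by less than 1.5-fold between the libraries, and 26 were higher in replicate 1.

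Klf10, a zinc-finger factor induced by transforming growth factor beta, ranked among these genes at 4182 and 5170 TPM, but its place rested on how a short transcript is scaled. A transcript of 326 bases held 99.6% of its TPM in each library. Its effective length, the number of start positions a fragment can have, was 127 and 117 bases. On a scale that uses full annotated lengths Klf10 stood at 2206 and 2562 TPM, and its rank by mean moved from 16 to 59. By estimated counts, with no length scaling, its rank was 291. In all, 36 genes with a mean of 10 TPM or more stood over 1.5 times higher on the TPM scale than on the full-length scale. They include mt-Atp8, mt-Nd4l, Rps27 and Olfr1033, an olfactory receptor symbol at 512 and 347 TPM whose reads came from a 316-base transcript.

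**Figure D2:**
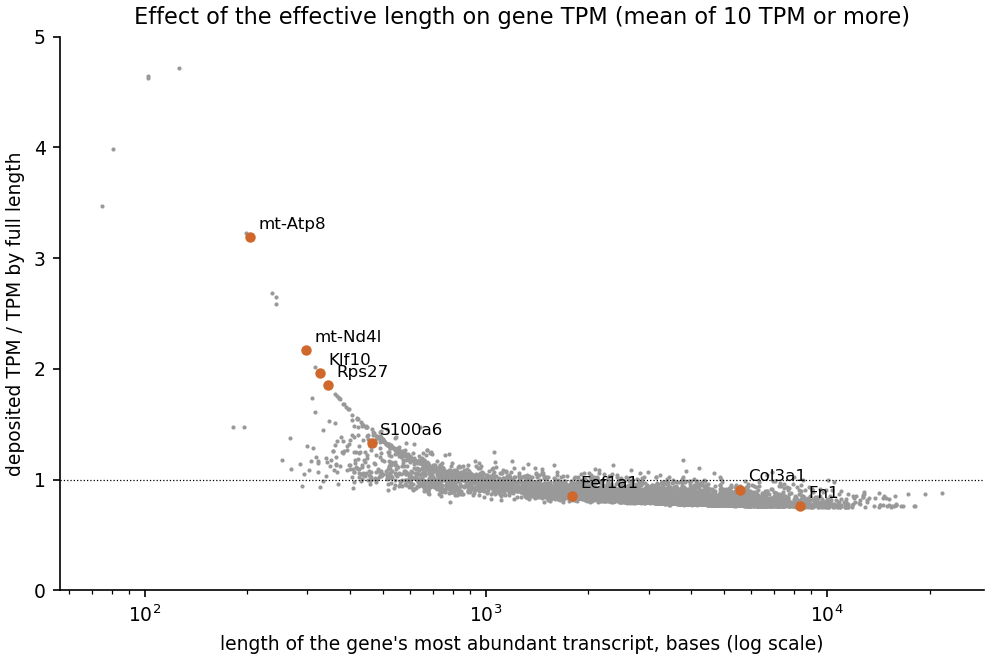
Ratio of each gene's TPM to its value on the full annotated length scale, against the length of its most abundant transcript in bases, 1 point per protein-coding gene with a mean of 10 TPM or more. Genes whose main transcript is short stand above the rest, with 36 genes past a ratio of 1.5.

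The identity genes of an epithelium were largely silent in these carcinoma cells, while those of mesenchymal cells were abundant. Of 32 epithelial identity genes, 6 reached 1 TPM in both libraries, against 49.5% of all protein-coding genes. Of 30 mesenchymal identity genes, 26 did. The lists were compiled by textbook role with earlier results of these data known.

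Among mesenchymal genes, Vim, the vimentin filament, was at 3598 and 3199 TPM, rank 32 and 34 of all protein-coding genes. Fibronectin (Fn1), a matrix glycoprotein that integrins bind, was at 2095 and 1533 TPM. Caldesmon (Cald1), which binds actin filaments, was at 841 and 654 TPM. The homeobox factor Prrx1 was the most abundant of the mesenchymal transcription factors, at 198 and 193 TPM. Zeb1 was at 50.0 and 37.1 TPM and Zeb2 at 49.8 and 37.1, so that the paired repressors of epithelial genes stood at the same level as each other in both libraries. Twist1 followed at 35.4 and 41.0 TPM and Snai1 at 16.9 and 15.2, with Snai2 lower at 3.08 and 4.13. N-cadherin (Cdh2), the adhesion molecule of mesenchymal and neural cells, was modest at 11.3 and 12.7 TPM. The receptor tyrosine kinase Axl was at 191 and 241 TPM.

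The epithelial list was carried by 3 genes. The simple-epithelium keratins Krt18 (227 and 214 TPM) and Krt8 (148 and 138 TPM), which pair into filaments, and the scaffold Tjp1 (67.7 and 75.3 TPM), also used by non-epithelial junctions, were the only members with a mean of 10 TPM or more. Vim stood 15.8 times above Krt18 in replicate 1 and 15 times in replicate 2. The adhesion molecule Epcam was at 0.123 and 0.198 TPM, from 2 and 3 counts. E-cadherin (Cdh1), the core of the epithelial adherens junction, was at 0.0581 and 0.0547 TPM, from 3 counts in each library. Both were therefore at the limit of counting. No count was seen in either library for the claudins Cldn3 and Cldn4, the basal keratin Krt14, the splicing regulator Esrp1, the transcription factor Ovol2, the polarity protein Crb3 or the serine protease Prss8. A count of 0 allows up to 3 counts, which for Esrp1 is 0.0475 and 0.0447 TPM and for Cldn4 is 0.109 and 0.103 TPM. These limits and all intervals here cover counting error only, because amplified reads were counted without molecular identifiers.

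Promoters of a few genes at the ends of this range, picked after their levels and motifs were seen, are shown because Zeb, Snai and Twist proteins act on E-box sequences, and in epithelial genes the E-box CAGGTG is their textbook target. Each line gives the 250 bases before the annotated start, 5′ to 3′ on the gene's strand, from RefSeq on build GRCm38.p6. Capitals mark the E-box CAGGTG on either strand, the GC box (GGGCGG) on either strand and the CCAAT box on either strand. They also mark the TATA box (TATAAA) on the gene's strand within 40 to 15 bases before the start. Vim lies at chr2:13574061-13574310 and Krt18 at chr15:102027966-102028215, both on the plus strand. Epcam lies at chr17:87635729-87635978 and Crb3 at chr17:57061951-57062200 on the plus strand, and Cldn4 at chr5:134946935-134947184 on the minus strand. Cldn3 lies at chr5:134985964-134986213 on the plus strand.
Vim: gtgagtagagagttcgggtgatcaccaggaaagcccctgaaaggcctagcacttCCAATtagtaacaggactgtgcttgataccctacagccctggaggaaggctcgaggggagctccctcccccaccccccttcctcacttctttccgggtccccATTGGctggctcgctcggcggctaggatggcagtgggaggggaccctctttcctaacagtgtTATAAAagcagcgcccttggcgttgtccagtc
Krt18: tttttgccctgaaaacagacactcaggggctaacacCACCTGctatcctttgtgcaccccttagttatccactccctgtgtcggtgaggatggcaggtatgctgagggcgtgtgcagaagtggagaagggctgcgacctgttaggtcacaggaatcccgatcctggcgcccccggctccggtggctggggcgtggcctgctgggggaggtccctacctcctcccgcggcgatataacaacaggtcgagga
Epcam: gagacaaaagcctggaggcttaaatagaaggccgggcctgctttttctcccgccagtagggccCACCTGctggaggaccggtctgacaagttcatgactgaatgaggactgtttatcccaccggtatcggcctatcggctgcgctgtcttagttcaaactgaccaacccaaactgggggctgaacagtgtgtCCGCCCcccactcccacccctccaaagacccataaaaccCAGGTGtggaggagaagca
Crb3: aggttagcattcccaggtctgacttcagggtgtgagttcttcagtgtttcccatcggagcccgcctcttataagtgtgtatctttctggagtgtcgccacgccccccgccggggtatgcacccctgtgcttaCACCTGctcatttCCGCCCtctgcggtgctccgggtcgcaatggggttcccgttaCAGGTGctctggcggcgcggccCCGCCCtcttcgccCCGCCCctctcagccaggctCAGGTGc
Cldn4: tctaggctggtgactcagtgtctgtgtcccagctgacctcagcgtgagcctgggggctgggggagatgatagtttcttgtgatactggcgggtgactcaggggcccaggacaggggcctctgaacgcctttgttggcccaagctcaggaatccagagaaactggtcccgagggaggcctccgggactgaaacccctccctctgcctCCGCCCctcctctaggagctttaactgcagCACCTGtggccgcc
Cldn3: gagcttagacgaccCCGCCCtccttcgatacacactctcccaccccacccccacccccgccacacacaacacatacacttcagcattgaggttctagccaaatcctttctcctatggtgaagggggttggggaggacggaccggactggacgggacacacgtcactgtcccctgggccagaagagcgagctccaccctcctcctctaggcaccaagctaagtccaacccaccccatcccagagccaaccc
The abundant gene Vim has a TATAAA 32 bases before its start and CCAAT matches at 94 and 196 bases, and no CAGGTG. Krt18, the abundant keratin, has a CAGGTG at 214 bases. Of the genes at or near 0, Epcam has it at 19 and 187 bases, Crb3 at 7, 63 and 118 bases and Cldn4 at 14 bases, whereas Cldn3 has none. Of the 5 epithelial members at 0 in both libraries that have a promoter in the table, 2 hold CAGGTG and 3 (Cldn3, Krt14 and Ovol2) do not, and the abundant Krt8 holds it. Over all 27025 promoters of the table, 17.1% hold CAGGTG, 32.9% GGGCGG, 34.5% CCAAT and 2.22% the TATAAA in its window. A match describes letters in this window; binding was not measured. Among genes with a mean of 100 TPM or more, 905 of 1125 had a promoter in the table, and 61.8% of these held GGGCGG, 10.8% CAGGTG and 2.21% TATAAA. The 27025 promoters also hold entries not matched to the protein-coding genes of this profile, so they are not a like background. No difference between these shares and theirs is read as tied to level.

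**Figure D3:**
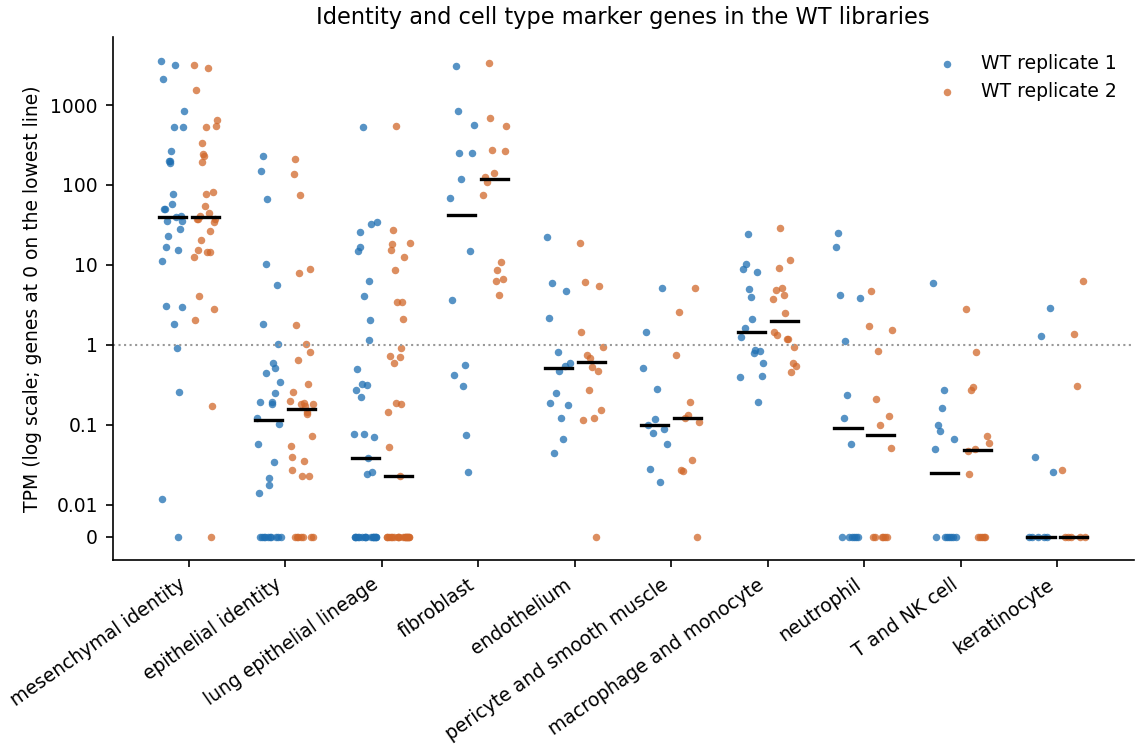
Level of each gene (TPM, log scale, with genes at 0 on the lowest line) for identity lists and cell type marker lists, 1 point per gene and library, with the median of each list as a bar and the limit of 1 TPM dotted. The mesenchymal median is 40.1 and 39.3 TPM in WT replicates 1 and 2, and the epithelial median 0.113 and 0.159 TPM.

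Most lung lineage genes were below 1 TPM. Of 37 lung epithelial lineage genes 9 were detected, against 49.5% of all protein-coding genes. Another 15 had no count in either library, against 22.5% of all protein-coding genes. Nkx2-1, the master regulator of lung epithelium, was at 0.0767 TPM in replicate 1, from 2.68 estimated counts, and at 0 in replicate 2. Surfactant protein C (Sftpc), the marker of alveolar type 2 cells, and secretoglobin Scgb1a1, the marker of club cells, had no counts. The limit a count of 0 allows was 0.305 and 0.293 TPM for Sftpc, and 0.675 and 0.669 TPM for Scgb1a1. Only Cav1, the caveolar coat protein that many mesenchymal cells also express, had a mean above 100 TPM, at 534 and 542. Hopx, a homeobox cofactor of alveolar type 1 cells, was at 26.2 and 27.6 TPM, and Sox9, a factor of the distal lung bud and of cartilage, was at 32.7 and 12.5 TPM.

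Part of the oncofetal and germline list was expressed. Of the 31 genes measured, 10 (32.3%) were detected, against 49.5% of all protein-coding genes. Another 11 had no count in either library, against 22.5% of all protein-coding genes. The chromatin architecture proteins Hmga1 (1147 and 859 TPM) and Hmga2 (274 and 246 TPM), high in embryos and many tumours, led the list. Igf2bp2, an RNA-binding protein, was at 102 and 94.0 TPM, whereas its relatives Igf2bp3 (6.01 and 7.27 TPM) and Igf2bp1 (2.25 and 3.34 TPM) were low. The retrotransposon-derived gene Peg10 was at 56.2 and 58.1 TPM. Pluripotency genes Pou5f1, Sall4 and Lin28a were at 0, as were the germ cell genes Ddx4 and Dazl. Not all such genes were absent, since Nanog, Dppa3 and Dppa4 did have counts.

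Of 45 RAS pathway and tumour genes 36 (80%) were detected, against 49.5% of all protein-coding genes. Myc, a transcription factor of cell growth, was the most abundant of the list at 335 and 247 TPM, and the small GTPase Nras was at 92.5 and 89.7 TPM. The ERK feedback phosphatase Dusp6, at 191 and 188 TPM, and the sprouty inhibitor Spry2, at 106 and 87.3, are transcribed in response to the pathway. Among receptors, Fgfr1 (203 and 179 TPM) stood above Egfr (25.8 and 26.2 TPM), while Fgfr2, Alk and Ros1 had no counts. Trp53 was at 134 and 141 TPM and its target Cdkn1a at 177 and 155. The cell cycle inhibitor Cdkn2a had no count in either library, a limit of 0.258 and 0.247 TPM, and its neighbour Cdkn2b had 0 and 1 count.

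Among lists of secreted products, matrix proteins and proteases had the highest summed levels, 15419 and 14421 TPM for the matrix list and 9857 and 7102 TPM for proteases and their inhibitors. The lists overlap and hold proteins that also act inside cells. The matrix sum includes Lgals1 (3509 and 3462 TPM), also a cytoskeleton list member, and Spp1, also a cytokine list member. The protease sum includes the cathepsins Ctsl and Ctsb. Of 44 matrix genes 37 were detected, of 45 proteases and inhibitors 36, and of 61 growth factors 41, against 49.5% of all protein-coding genes. Cytokines (21 of 40) and chemokines (14 of 32) were detected at shares near that of all genes, and their levels rested on a few members.

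Within the matrix group Col3a1, the chain of fibrillar collagen type III, was at 3060 and 3398 TPM, rank 51 and 29. Its full-length transcript of 5564 bases held 56.4% and 59.1% of that. Osteopontin (Spp1), an integrin-binding phosphoprotein that also acts as a cytokine, was at 2615 and 1463 TPM. The small proteoglycans decorin (Dcn, 840 and 692 TPM) and lumican (Lum, 251 and 273 TPM), which organise collagen fibrils, followed, with the basement membrane linker nidogen (Nid1) at 499 and 388 TPM. These levels differed by less than 1.5-fold between the libraries except for Spp1.

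Some other fibrillar collagen genes did not follow Col3a1. Col1a1, a chain of type I collagen, was at 3.67 TPM in replicate 1 and 127 TPM in replicate 2. Its partner chain Col1a2 was at 0.421 and 108 TPM, from 19.6 and 10181 estimated counts. Col3a1 thus stood 834 times above Col1a1 in replicate 1 and 26.7 times above it in replicate 2. Periostin (Postn), a matrix protein of activated stroma, was at 0.0996 and 64.1 TPM. Col5a2 (0.514 and 20.1 TPM) and Col12a1 (0.775 and 20.3 TPM) showed the same contrast. The fibrillar chains Col5a1 (54.5 and 69.8 TPM) and Col5a3 (30.5 and 33.6 TPM) were at like levels in both libraries, as Col3a1 was. Of 36 matrix genes with a mean of 10 TPM or more, 8 were past 2-fold higher in replicate 2, against 0.966% of all 7450 such genes. The remaining members past 2-fold were Bgn, Fbln2 and Tgfbi, which were named after their values were seen. Col1a1, Col1a2, Postn, Col5a2, Col12a1 and Fbln2 were below 10 TPM in replicate 1 and passed the filter on low values through replicate 2 alone.

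Several other stromal genes were also higher in replicate 2, and a few were higher in replicate 1. Mmp2, the gelatinase of fibroblasts, had 0 counts in replicate 1 and 989 in replicate 2, where it was at 19.3 TPM, at least 319-fold higher when 3 counts per library are taken as the floor. Igfbp5 had 0 and 915 counts, at least 286-fold higher. The fibroblast markers Mfap5 (0.0254 and 11 TPM), Pi16 (0.305 and 6.24 TPM), Clec3b (0.0751 and 4.16 TPM) and Col14a1 (0.555 and 8.66 TPM) were higher in replicate 2 as well. In the other direction, the fibroblast protease Fap was at 15 and 6.74 TPM and the BMP antagonist Grem1 at 33.6 and 11.2 TPM. Over the whole list of 14 fibroblast markers, 9 (64.3%) were detected in both libraries, against 49.5% of all protein-coding genes. None was at 0 in both, and the summed level was 5176 and 5656 TPM, most of it from Col3a1, Dcn and Serpinf1. The abundant members Dcn, Lum, Dpt (118 and 141 TPM) and Pdgfra (69.0 and 73.9 TPM) stood at like levels in both libraries. The part that host fibroblasts had in the type I collagen values was not tested. In bulk RNA, fewer cells of a type and less RNA per cell cannot be told apart.

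The promoters of Col3a1 (chr1:45311288-45311537) and Col1a2 (chr6:4505368-4505617), both on the plus strand and in the same format, are set side by side because Col3a1 was at like levels in the libraries and Col1a2 was not.
Col3a1: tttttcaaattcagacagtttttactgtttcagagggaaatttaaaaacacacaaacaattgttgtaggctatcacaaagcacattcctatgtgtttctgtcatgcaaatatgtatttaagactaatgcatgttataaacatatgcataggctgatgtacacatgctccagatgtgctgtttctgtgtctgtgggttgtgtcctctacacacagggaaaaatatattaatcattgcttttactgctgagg
Col1a2: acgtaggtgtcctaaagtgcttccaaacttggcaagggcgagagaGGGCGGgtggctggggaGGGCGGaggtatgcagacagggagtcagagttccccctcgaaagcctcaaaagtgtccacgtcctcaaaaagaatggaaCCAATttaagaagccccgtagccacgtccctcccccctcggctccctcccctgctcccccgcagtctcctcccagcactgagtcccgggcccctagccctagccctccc
Col1a2 holds GGGCGG at 188 and 205 bases before the start and CCAAT at 109, whereas CAGGTG, the GC box and the CCAAT box were not found in the Col3a1 window. Its TATAAA lies outside the window searched for that motif and is not in capitals. What these letters do in LLC cells was not measured.

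Among proteases the lysosomal and secreted cathepsin Ctsl led at 4136 and 2848 TPM, followed by Ctsb at 865 and 615. A retained-intron transcript of 801 bases held 58.3% and 56.5% of the Ctsb level. The stromelysin Mmp3, which cleaves matrix and activates other proteases, was at 902 and 322 TPM, 2.80-fold higher in replicate 1. The elastase Mmp12 was at 560 and 128 TPM, 4.34-fold higher in replicate 1, with folds taken on TPM + 1. Membrane-bound Mmp14 (433 and 395 TPM) differed little, so that Mmp3 stood 2.08 times above Mmp14 in replicate 1 and 0.816 times in replicate 2. The plasminogen activator Plau was at 390 and 234 TPM. Of the inhibitors, Serpinf1, the anti-angiogenic factor PEDF, was at 569 and 539 TPM, and Timp2 was at 300.02 and 231. Of 29 members with a mean of 10 TPM or more, 3 were past 2-fold higher in replicate 1 (background 0.604%), with Mmp10 as the third, and none was past 2-fold higher in replicate 2. Mmp10, at 31.7 and 8.02 TPM, was below 10 TPM in replicate 2 and had the required mean through replicate 1. Protease genes with a mean below 10 TPM went both ways. Mmp2 (0 and 19.3 TPM), Ctsk (0.985 and 6.32 TPM) and Ctsh (1.95 and 6.70 TPM) were higher in replicate 2. Mmp13 (5.04 and 2.49 TPM) was higher in replicate 1. Macrophages are another known source of Mmp12. The 16 macrophage and monocyte markers summed to 69.9 and 77.7 TPM, none was at 0 in both, and Csf1r was at 1.27 and 1.43 TPM. Of these markers 9 were detected (56.25%), near the 49.5% of all protein-coding genes. The part of macrophages in the Mmp12 values was not tested.

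The chemokine profile was led by attractants of monocytes and neutrophils. Ccl2, the main ligand of CCR2 on monocytes, was at 509 and 333 TPM, and Cxcl1, a ligand of CXCR2 on neutrophils, was at 148 and 173. Their ratio was 3.45 in replicate 1 and 1.93 in replicate 2. Ccl7, which also binds CCR2, was at 114 and 105 TPM, and Ccl11, the eosinophil attractant, was at 33.1 and 29.7. The interferon-induced Cxcl10, which draws T cells through CXCR3, was at 11 and 43.6 TPM and was the chemokine past 2-fold among the 9 with a mean of 10 TPM or more. The lymphoid chemokine Ccl19 and Cxcl17 and Xcl1 had no count in either library.

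Cytokines were dominated by a few genes. After Spp1 came Mif, a macrophage-modulating cytokine, at 654 and 432 TPM, progranulin (Grn) at 211 and 235, and the alarmin Il33 at 268 and 136. Csf1, the growth factor of macrophages, was at 82.3 and 82.7 TPM, and stem cell factor (Kitl) at 83.5 and 83.0, both nearly equal in the libraries. The granulocyte factor Csf3 was low, at 6.79 and 2.21 TPM, and Csf2 lower still, at 1.67 and 0.867. The T cell cytokines Il17a, Il13 and Ifng and the interleukin 12 subunits Il12a and Il12b had no counts.

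Among growth factors the binding protein Igfbp4, which holds insulin-like growth factors, was most abundant at 1343 and 1174 TPM. A processed transcript of 785 bases, not annotated as coding, held 58.1% and 56.3% of that. Heparin-binding Hdgf was at 269 and 275 TPM, follistatin-like Fstl1 at 200.3 and 260, and the angiopoietin-like factor Angptl2 at 112 and 100.2. Vegfa, the main angiogenic factor and a hypoxia target, was at 55.1 and 34.2 TPM. The BMP antagonist Nog, Wnt7a and Igfbp2 had no counts.

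The libraries agreed closely over most genes and differed sharply in a few. Across 11143 genes with a mean of 1 TPM or more, Pearson r was 0.976 on log2(TPM + 1) and Spearman's rank correlation was 0.979, given as a description across genes, which are not independent replicates. Of 7450 genes with a mean of 10 TPM or more, 95.2% lay within 1.5-fold and 117 (1.57%) were past 2-fold, 72 higher in replicate 2 and 45 higher in replicate 1. The median absolute log2 difference was 0.14, and the SD of the signed difference over genes was 0.35. The median counting SD of that difference was 0.057, and 4352 of the genes (58.4%) differed beyond 95% counting limits. For this count the log2 ratio was taken on TPM without a pseudocount and centred on its median over genes. For 6876 genes (92.3%) the same transcript was the most abundant in both.

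**Figure D4:**
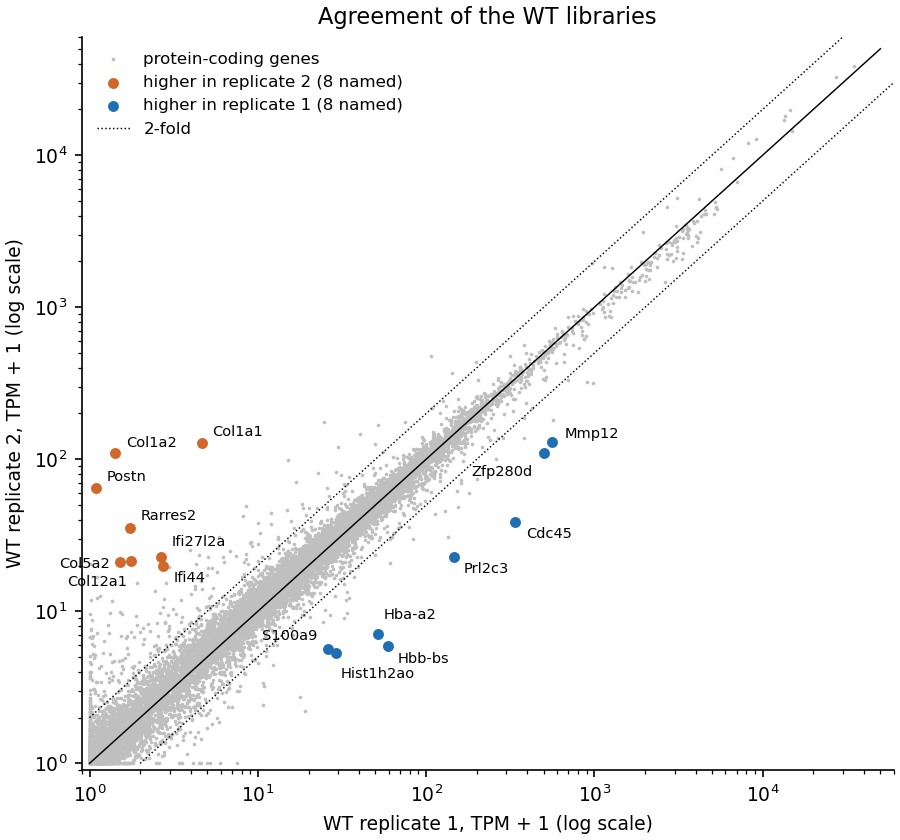
TPM + 1 of each protein-coding gene in WT replicate 2 against WT replicate 1, both axes on a log scale, with the line of equality, 2-fold lines, and the 8 genes per direction with the largest ratio in colour. Col1a1, Col1a2 and Postn lie far above the 2-fold line, and Hbb-bs, Cdc45, Mmp12 and others lie below it.

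Besides those of Col1a1, Col1a2, Col5a2, Col12a1 and Postn, the 8 largest ratios in favour of replicate 2 included that of Rarres2 (0.744 and 34.2 TPM). It encodes the chemoattractant chemerin. The others were those of the interferon-induced genes Ifi27l2a (1.65 and 21.8 TPM) and Ifi44 (1.72 and 19 TPM). All 8 genes were below 10 TPM in replicate 1 and had the required mean of 10 TPM through replicate 2 alone. Among the 8 in favour of replicate 1 were genes of other cell types: the adult globins Hbb-bs (58.0 and 4.90 TPM) and Hba-a2 (50.6 and 6.09 TPM) and the neutrophil calprotectin subunit S100a9 (25.0 and 4.68 TPM). The remaining ones were Mmp12 (560 and 128 TPM), Cdc45, Prl2c3, Zfp280d and the histone Hist1h2ao (28.1 and 4.34 TPM). Hbb-bs, Hba-a2, S100a9 and Hist1h2ao were below 10 TPM in replicate 2 and had the required mean through replicate 1 alone. Cdc45, part of the replicative helicase, was at 338 and 37.9 TPM, but a retained-intron transcript supplied 7005 of its counts in replicate 1 and 449 in replicate 2. Its main coding transcript of 2143 bases stood at 13.6 and 17.6 TPM, in the opposite order. Zfp280d was likewise set by a noncoding transcript of 412 bases, at 484 and 91.4 TPM of a total of 497 and 109.

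Several gene programs were shifted between the libraries as groups. The median log2 difference, replicate 2 minus replicate 1, was 0.05 over all 7450 genes with a mean of 10 TPM or more. More of these genes were thus higher in replicate 2 than in replicate 1. Their exact share was not counted, so the counts by direction given here have only this median beside them. Immediate early and AP-1 genes, which are switched on within minutes by growth factors and stress, had a median of 0.83, and 10 of 22 were past 2-fold higher in replicate 2, against 0.966% of all 7450 genes. Among the 10, Btg2 (4.79-fold on TPM + 1) was below 10 TPM in replicate 1 and had the required mean through replicate 2. Fos was at 106 and 474 TPM and Jun at 141 and 369. Zfp36, which destabilises cytokine mRNAs, was at 23.6 and 175 TPM, and Egr1 at 28.9 and 119. Antigen presentation and checkpoint genes had a median of 0.55, with B2m, the light chain of MHC class I, at 1269 and 1816 TPM and H2-K1, a classical heavy chain, at 125 and 240. Proliferation genes had a median of 0.39, and 33 of 34 were higher in replicate 2, among them Top2a at 95.5 and 134 TPM and Mki67 at 25.3 and 35.9. None of the 34 was past 2-fold.

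Glycolysis and hypoxia genes ran the other way, with a median of −0.49 and 27 of 27 higher in replicate 1. The glucose transporter Slc2a1 was at 379 and 138 TPM, the hypoxia-induced Ndrg1 at 260 and 99.3, and the vasodilator peptide adrenomedullin (Adm) at 199 and 73.0. Lactate dehydrogenase (Ldha), at 1526 and 1172 TPM, differed less. Of these 27, 4 were past 2-fold higher in replicate 1, against 0.604% of all 7450 genes. Iron storage and antioxidant genes had a median of −0.20, and the metallothioneins Mt1 (564 and 181 TPM) and Mt2 (982 and 317 TPM) and the haem oxygenase Hmox1 (178 and 58.9 TPM) were past 2-fold higher in replicate 1. For the ribosomal protein genes the median was −0.18 and 74 of 79 were higher in replicate 1. For the mitochondrially encoded genes it was 0.52, and 13 of 13 were higher in replicate 2. The mesenchymal identity list differed by little, at −0.04.

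**Figure D5:**
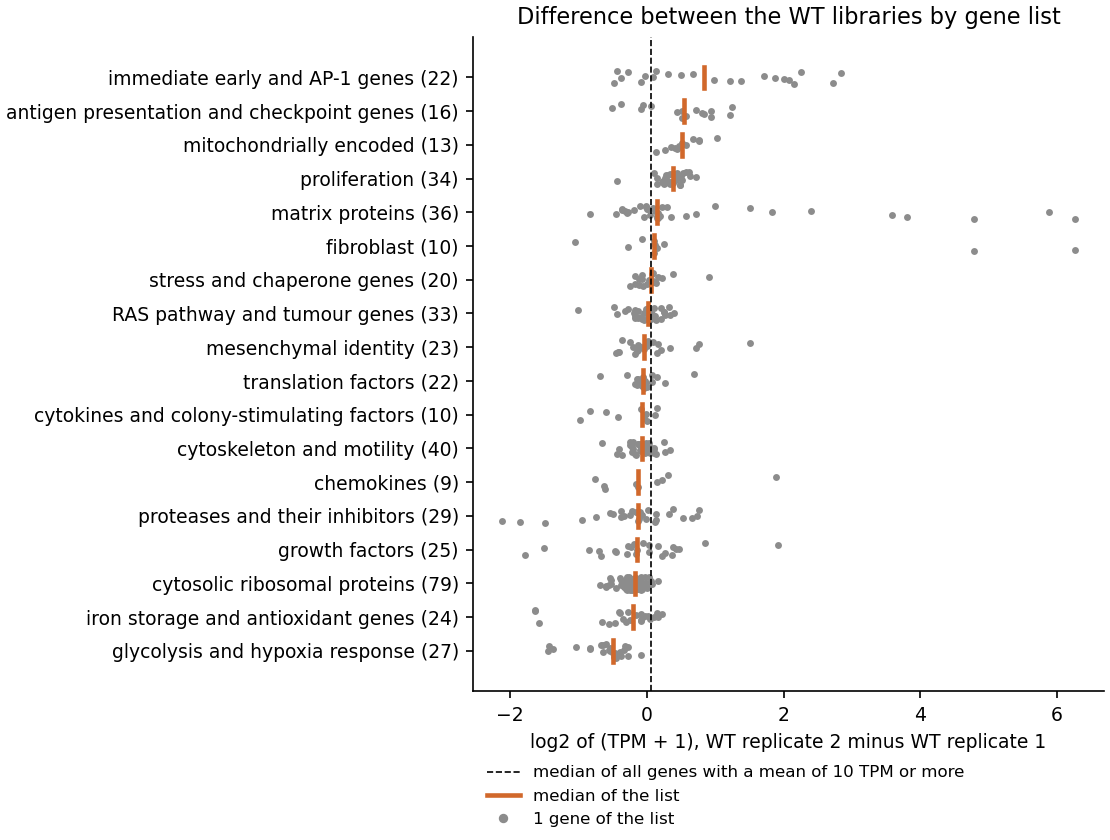
Difference in log2(TPM + 1), WT replicate 2 minus WT replicate 1, for the genes with a mean of 10 TPM or more (number in brackets) of the lists that have at least 8 of them, with the median of each list and of all genes. Of the lists shown, immediate early genes have the highest median, 0.83, and glycolysis and hypoxia genes the lowest, −0.49.

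Markers of leukocytes were present at low levels in these cells, which had been gated as CD45-. Ptprc, which encodes CD45, was at 0.713 and 0.551 TPM. Of 12 pan-leukocyte markers 8 reached 1 TPM in both libraries, a share of 66.7% against 49.5% of all protein-coding genes, and all of these but Arhgdib were below 5 TPM. The list summed to 109 and 73.8 TPM, of which Arhgdib, a GDP dissociation inhibitor that other cells also express, made up 87.6 and 48.4. No member of that list was at 0 in both. Neutrophil markers summed to 51.3 and 9.24 TPM over 14 genes, 3 of them detected, with Ly6g, Camp, Ltf and Elane at 0 in both libraries and S100a8 at 16.7 and 1.72 TPM. Padi4, the gene floxed in the hosts, had 0 and 2 counts. The 14 T and NK cell markers measured summed to 6.65 and 4.45 TPM, with Gzma, Gzmb, Nkg7, Ncr1 and Klrb1c at 0. The 14 endothelial markers summed to 38.7 and 35.8 TPM, with Pecam1 at 22.6 and 18.7 but Cdh5, the endothelial cadherin, at 2.14 and 1.43 and Kdr at 0.188 and 0.114. Of the erythroid and platelet markers 5 of 11 were detected (45.5%), near the 49.5% of all protein-coding genes. The sum of that list, 138 and 20.6 TPM, moved with the globins. The part of these cells in the differences between the libraries was not tested.

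Gene families of specialised tissues were wholly or partly without counts, which gives the other end of the profile. Of all protein-coding genes, 22.5% were at 0 in both libraries. All 57 keratin-associated proteins of hair and all 22 major urinary proteins of liver were at 0 in both libraries. The secretoglobins of airway and gland secretions were at 0 for 33 of 34 genes, and the keratins for 37 of 53. Of 32 claudins, the sealing proteins of tight junctions, 18 were at 0 and 2 were detected. Olfactory receptors were at 0 for 561 of 1134 genes, and 19 were detected (1.68%). The family summed to 670 and 483 TPM, of which Olfr1033 made up 512 and 347. Integrins are the receptors through which cells hold fibronectin and collagen. Of 31 genes with an Itga or Itgb symbol 17 were detected (54.8%), near the 49.5% of all protein-coding genes. The detected ones include Itgb1bp1 (36.1 and 38.0 TPM) and Itgb3bp (10.4 and 9.67 TPM), which are binding proteins and not integrin subunits. Itgb1, the shared beta subunit, was at 526 and 524 TPM.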

How the data were processed

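Poly-A RNA of sorted LLC cells from WT hosts was analysed in 2 libraries. The PAD4-DN libraries enter no value. The submitters' processing notes name kallisto and GRCm39; version, settings and annotation release were not given in the sources used here. Each library's table lists 117486 transcripts with estimated counts and TPM, per the file headers. The deposited estimated counts are not normalized and need not be whole. Deposited TPM are the authors' length-scaled abundances, which sum to 1000000 per library. Over transcripts of at least 5000 bases, length exceeded effective length by a median of 223.9 and 239.4 bases.

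Transcript versions were removed and identifiers matched to GENCODE M21, used for symbols and gene types only since its build differs from that of the files. Of the transcripts 116408 matched; the 1078 others held 0.493% and 0.491% of counts and were left out. TPM and estimated counts were summed per gene, and identifiers with the same symbol were merged. Reads shared by similar transcripts are split by estimation, so near-identical copies (Gm11808, Gm2000, Rps12-ps3, Prl2c3) have uncertain values. Folds use TPM + 1, and counts past 2-fold use genes with a mean of at least 10 TPM.

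Named genes are the 30 most abundant outside the mitochondrial and ribosomal families, the 4 highest of each family, the 5 highest and up to 6 absent members of each list, lineage-defining genes and the 8 per direction with the largest ratio; others were named after their values were seen. Not every gene of the rule is printed, and 1 is not reported here. The members and the lists were chosen with earlier results of these data known. H19, Cxcl11 and Trac had no protein-coding entry. Promoters come from a RefSeq table, matched by symbol or synonym; Cdh1, Esrp1, Col1a1 and Zeb1 are not in it. The fold and agreement steps were tested on simulated data. Alternatives were other length scales, rescaling without mitochondrial genes, other detection limits, pseudocounts and filters, and leaving out each library. Python 3.11.15, pandas 2.3.3, numpy 2.4.6 and scipy 1.17.1 were used.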

Additional observations from a re-analysis of the deposited data

How the results depend on the processing

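The number of detected genes stayed within 1.5 times its value of 10805 under each alternative run, from 8752 at a limit of 5 TPM to 12218 at 10 estimated counts, and was 11039 to 11214 with 1 library left out. The shared part of the lists of 100 was 92 to 96 genes over the 4 other scales. The share of TPM held by the 100 most abundant genes, 46.3% as a mean of the libraries, was 41.9% with full annotated lengths, 27.0% in estimated counts without length scaling and 37.1% without mitochondrially encoded genes. It was 46.1% to 46.5% with 1 library left out. The count past 2-fold, 117, became 376 (258 and 118 higher in replicates 2 and 1) without the filter on low values, where more genes with few counts are included, and ran from 108 to 140 under the other alternatives. Of 125 named genes with a mean of 10 TPM or more, 2 changed their order between the libraries with full lengths, 5 in estimated counts and 2 with mean effective lengths; 8 of 120 did so without mitochondrial genes. The medians of the translation factor and mesenchymal lists changed sign under that last scale, to 0.01 and 0.02, where the median of all genes was 0.12. Depth limits statements on genes of a few counts, such as Epcam, Cdh1 and Nkx2-1. No paired analysis was possible because only 1 group was described and no test was run.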

Other observations

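In the prolactin family, known from the placenta, only Prl2c3 and Prl2c2 had high levels in these tumour cells. Prl2c3 was at 144 and 21.9 TPM and its near-identical neighbour Prl2c2, also known as proliferin, at 133 and 29.99 TPM in replicates 1 and 2, so that both were higher in replicate 1. Of 25 genes of the family 3 (12%) were detected, against 49.5% of all protein-coding genes. The other detected member, Prl8a1, was at 2.52 and 4.08 TPM. A further 18 had no count in either library, against 22.5% of all protein-coding genes. Pseudogenes of all kinds held 8.57% and 7.66% of TPM but 2.37% and 2.05% of estimated counts. Retained-intron transcripts of protein-coding genes held 3.55% and 3.63% of TPM. For 536 of the 7450 genes with a mean of 10 TPM or more (7.19%) the most abundant transcript was not a coding one, and for 197 (2.64%) it was shorter than 500 bases.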
